A study of Drosophila melanogaster with 9 samples.

Results

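The sites described here are genomic regions with a listed peak of FLAG, the tag carried by Pita, in both fly lines of the study. At these sites CP190 was listed in the mutant line only. They were chosen by the rule that a FLAG peak of the Pita wt line overlaps a FLAG peak and a CP190 peak of the Pita ΔCP1+2 line and overlaps no CP190 peak of the Pita wt line. Each peak was taken as a window of 250 bp on each side of its summit, and 1 shared bp counted as an overlap. The rule found 671 sites among 6901 Pita wt FLAG peaks. They are 13.6% of the 4938 FLAG peaks that were shared between the lines, and are called mutant-only sites below. Presence and absence in the lists chose these sites and are therefore given as a description with no test.

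The ChIP-seq series has 9 samples from whole embryos, labelled as strain Oregon-R and collected for 0 to 12 h, whereas the methods of the study name a later window. The Pita ΔCP1+2 line expressed a 3×FLAG-tagged Pita that lacks both regions contacting the BTB domain of CP190, and the Pita wt line expressed the full-length tagged protein. Both transgenes were driven by the ubiquitous Ubi-p63E promoter from the same landing site on the third chromosome. The tagged protein was thus not made under the control of the pita gene. The study also crossed the transgenes into a pita mutant background without detectable endogenous pita mRNA, where they complemented the mutations. The sources used here do not say whether the ChIP-seq embryos had that background or still carried a functional endogenous pita gene. FLAG and CP190 were each precipitated in 2 replicates per line, and every list was called against the same 1 preimmune sample, which came from Pita wt embryos, so that the Pita ΔCP1+2 lists have no control of their own line. The replicates are pooled in 1 deposited peak list per antibody and line. No difference between lists at a site could thus be set against a spread between replicates, and the read depth behind the peaks is unknown here. For whole lists, the supplement of the study gives 2 ratios of reproducibility between replicates. Both were higher, thus poorer, for each Pita wt list than for the Pita ΔCP1+2 list of the same antibody. The self-consistency ratio of both Pita wt lists exceeded the limit in the methods, where the study rated all lists ideal or acceptable. Absence from the Pita wt CP190 list is part of the rule for these sites.

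Pita is an architectural protein with a zinc-finger-associated domain at its N-terminus and a cluster of C2H2 zinc fingers that reads DNA. CP190 is a BTB-domain protein of insulators and promoters that binds DNA poorly by itself and is brought to chromatin by several DNA-binding partners, of which Pita is one. A CP190 peak can therefore lie at a Pita site through Pita, through another partner or through both, and a peak list does not tell these apart. The methods of the study divide FLAG peaks by the presence of the Pita motif, to address non-specific binding of FLAG. A FLAG peak without the motif is therefore not taken here as proof of Pita binding.

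The sequences of the mutant-only sites give the first picture of them. The following 4 windows belong to the sites with the highest CP190 enrichment in Pita ΔCP1+2 among those whose 3 summits (both FLAG peaks and the mutant CP190 peak) fall into one short window without annotated UTR. They are shown 5′ to 3′ on the plus strand of dm6 (RefSeq Release 6 plus ISO1 MT), 151 bases centred on the Pita wt FLAG summit, and the capitals mark the stretch spanned by the 3 summits.
Rcd-1, chrX:19639565-19639715: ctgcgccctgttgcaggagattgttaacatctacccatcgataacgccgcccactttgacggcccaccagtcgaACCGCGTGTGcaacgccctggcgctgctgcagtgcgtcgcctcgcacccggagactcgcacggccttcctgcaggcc
dy, chrX:11770992-11771142: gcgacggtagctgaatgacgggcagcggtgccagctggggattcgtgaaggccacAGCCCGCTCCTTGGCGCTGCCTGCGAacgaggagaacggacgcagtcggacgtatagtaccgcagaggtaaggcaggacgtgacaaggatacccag
raskol, chrX:17751087-17751237: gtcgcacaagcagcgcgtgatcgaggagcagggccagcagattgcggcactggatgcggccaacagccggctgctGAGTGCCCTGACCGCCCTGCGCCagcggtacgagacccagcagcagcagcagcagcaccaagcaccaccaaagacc
dlg1, chrX:11395495-11395645: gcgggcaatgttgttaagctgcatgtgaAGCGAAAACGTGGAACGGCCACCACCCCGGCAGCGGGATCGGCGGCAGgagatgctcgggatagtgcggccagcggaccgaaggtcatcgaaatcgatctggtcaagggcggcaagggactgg

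All 151 bases of each of the 4 windows are annotated as coding, and their GC content lay between 62.3% at dlg1 and 66.9% at raskol. The 3 summits spanned 10 bp at Rcd-1, 26 bp at dy, 23 bp at raskol and 48 bp at dlg1. Closeness of the summits was part of the choice of these windows and is not a result about them.

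The Pita matrix of the study has 21 positions and was scanned over both strands of each window. The next 5 words are among the best matches of the mutant-only sites (that at CG2127, with a p between those of Cpr67Fb and sens-2, is not shown), and 3 of the best matches among the 307 shared FLAG peaks with CP190 in Pita wt only follow them for comparison. Each is written in the direction of the matrix, and capitals mark the bases that carry the highest weight of the matrix at their position.
Mutant-only site in haf, chr2L:1602626-1602646, plus strand: cCacAGCGGAGcCAaCAACCA
Mutant-only site in RtGEF, chr2L:20360287-20360307, plus strand: GtTcAGCccAGACACCAAaCA
Mutant-only site in brm, chr3L:15982396-15982416, minus strand: GCacAGCccgtAtcCGcACCA
Mutant-only site in Cpr67Fb, chr3L:10894421-10894441, minus strand: cggcAGCttgGACtCCAcCCA
Mutant-only site in sens-2, chr2L:6837801-6837821, plus strand: ctTcAGCcagagCtCCAACCt
Pita wt only, intron near CG32295, chr3L:2531520-2531540, plus strand: GtTTAGCtGAGACACGAACCA
Pita wt only, near lncRNA:CR45717, chr2L:1142815-1142835, plus strand: cCTcAGCGGgGACACGAACCc
Pita wt only, near CG42788, chr3R:15132015-15132035, minus strand: aCTTAGCaGAGACACGcACCg

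Of the 21 positions, 16 carried the highest-weight base at haf and RtGEF, 12 at brm and Cpr67Fb and 11 at sens-2. The words with CP190 in Pita wt only carried it at 19 positions near CG32295, and at 17 positions near lncRNA:CR45717 and CG42788. The exact p of the score is the proportion of random words, drawn with all bases equally frequent, that reach it. It was 2.01e-06 at haf and 3.16e-06 at RtGEF, against 6.09e-10 near CG32295. As 960 words are scored per window, a match at the looser thresholds can occur without a binding site.

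A match below 0.0001 was found at 55 of the 671 mutant-only sites (8.20%, 95% Wilson interval 6.35 to 10.5%). It was found at 374 of the 3420 sites with CP190 in both lines (10.9%), at 76 of the 305 sites with CP190 in Pita wt only (24.9%, interval 20.4 to 30.1%), and at 6.26% of the windows of equal length that lay 5 kb to each side of the mutant-only sites. Intervals here cover counting error over peaks, which are not replicates. The p takes all bases as equally frequent, while the median GC content was 56.4% at mutant-only sites and 43.8% in the windows 5 kb away. The part of base composition in the shares of matches was not tested. Below 1e-05 there were 2 mutant-only sites (0.298%), those in haf and RtGEF, against 43 sites with CP190 in Pita wt only (14.1%), 1.70% of the sites with CP190 in both lines, 1.70% of those with CP190 in neither line and 0.969% of the windows 5 kb away. Below 1e-06 there were 0 of 671 mutant-only sites, with an upper Wilson limit of 0.569%, against 30 of 305 sites with CP190 in Pita wt only (9.84%) and 17 of 3420 with CP190 in both lines (0.497%). Over all shared FLAG peaks the shares at these thresholds were 11.2% below 0.0001, 2.27% below 1e-05 and 0.975% below 1e-06, to which the sites with CP190 in Pita wt only contribute. The mutant-only shares lay below them at each threshold, and the differences were not tested.

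The haf gene encodes a leucine-rich-repeat membrane protein, and its site had its FLAG summit in a coding exon, 90 bp from the matrix match. The CP190 peak there ranked 5446 of 8429 in Pita ΔCP1+2, and the FLAG peak ranked 2258 of 7365 in Pita ΔCP1+2 and 1887 of 6901 in Pita wt. At RtGEF, the CP190 peak ranked 5419 in Pita ΔCP1+2, and the FLAG peak ranked 5708 in Pita ΔCP1+2 and 6437 in Pita wt. At brm, which encodes the ATPase of the Brahma remodelling complex, the match was 5 bp from the FLAG summit and the CP190 peak ranked 6469. The CP190 peak ranked 2304 at Cpr67Fb, a cuticle protein gene, and 7160 at CG2127. Among the mutant-only sites with the lowest exact p of the score, the CP190 peaks thus lay between ranks 2304 and 7160 of 8429.

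Over the whole set of shared FLAG peaks, 3429 had a CP190 peak in both lines, 671 in Pita ΔCP1+2 only, 307 (6.22%) in Pita wt only and 531 in neither line. Of the 4100 shared FLAG peaks with a CP190 peak in Pita ΔCP1+2, 16.4% had none in Pita wt. Counted over the whole CP190 list of Pita ΔCP1+2, 3483 of 8429 peaks (41.3%) overlapped no Pita wt CP190 window. Absence from the Pita wt CP190 list was thus less frequent at shared FLAG peaks than over the whole list, and is not particular to them. The CP190 list of Pita ΔCP1+2 was the longer one, with 8429 peaks against 6586 in Pita wt, and this bears on the count. At 139 of the 671 sites (20.7%) the CP190 peak ranked past the length of the Pita wt list. When both CP190 lists were taken at equal length by fold enrichment, 532 shared FLAG peaks had CP190 in Pita ΔCP1+2 only and 544 in Pita wt only. At equal length by −log10 p these numbers were 559 and 468. The excess of mutant-only sites over those with CP190 in Pita wt only was therefore present in the lists as deposited. At equal length it was smaller by −log10 p and absent by fold enrichment, so it depends on the measure that ranks the peaks.

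The mutant-only sites ranked lower, by the median, than sites with CP190 in both lines in each list that holds them, and their medians lay somewhat below the middle of the lists. Fold enrichment is the ratio over the preimmune control that the authors gave each peak. At these sites the CP190 fold in Pita ΔCP1+2 had a median of 2.04, with a lowest value of 1.47 and a highest of 3.44. It had a median of 2.29 at sites with CP190 in both lines. The median over the whole CP190 list of Pita ΔCP1+2 was 2.07. The FLAG fold at the mutant-only sites had a median of 1.94 in Pita ΔCP1+2 (1.34 to 3.51) and of 2.03 in Pita wt (1.26 to 4.77), where the whole FLAG lists had medians of 2.02 and 2.13. Lists were called separately and their folds are not on one scale, so ranks within a list are given beside them. The median rank was 4614 of 8429 for CP190 in Pita ΔCP1+2, 4476 of 7365 for FLAG in Pita ΔCP1+2 and 4363 of 6901 for FLAG in Pita wt. For sites with CP190 in both lines the same ranks were 2272, 2371 and 2545. The interquartile ranges of their CP190 fold, 1.89 to 2.22 at mutant-only sites and 2.08 to 2.57 at sites with CP190 in both lines, overlapped.

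**Figure D1:**
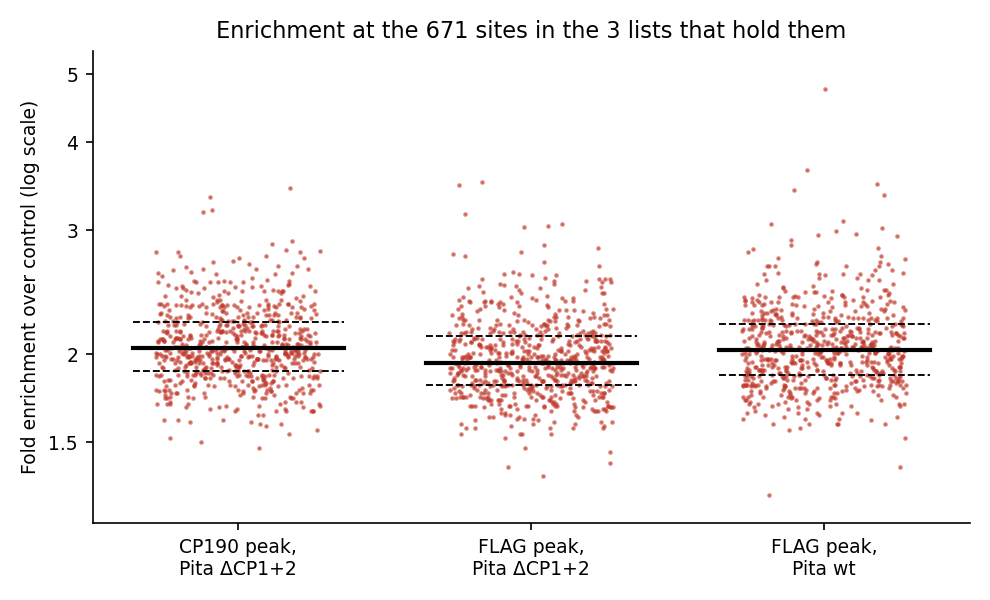
Fold enrichment over the preimmune control (vertical axis, log scale) at each of the 671 mutant-only sites in the 3 lists that hold them; each point is 1 site, the thick line the median and the dashed lines the quartiles. Most sites lie close to the medians of 2.04, 1.94 and 2.03, and few exceed 3.

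The share of mutant-only sites among the shared FLAG peaks was the larger the weaker the FLAG peak. In the strongest quintile by Pita wt FLAG rank, 41 of 988 shared peaks were mutant-only sites (4.15%, interval 3.07 to 5.58%). The following quintiles held 78 of 987, 128 of 988 and 169 of 987, and the weakest held 255 of 988 (25.8%, interval 23.2 to 28.6%). The share of peaks with CP190 in both lines ran the other way, with 80.3% in the strongest and 53.9% in the weakest quintile. The share with CP190 in Pita wt only lay between 4.15% and 7.40% without a steady course. Ranking the shared peaks by their FLAG rank in Pita ΔCP1+2 put 41 mutant-only sites in the strongest and 254 in the weakest quintile. By that ranking the share with CP190 in Pita wt only was 4.05% in the strongest and 8.70% in the weakest quintile, so for this class the course depends on the list that ranks the peaks. With CP190 lists of equal length by fold enrichment, the mutant-only share of the weakest quintile was 17.1%, and that of the strongest was 3.54%. Peak strength and presence in the CP190 lists come from calls against the same preimmune control, and the part of the control in this gradient was not tested.

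**Figure D2:**
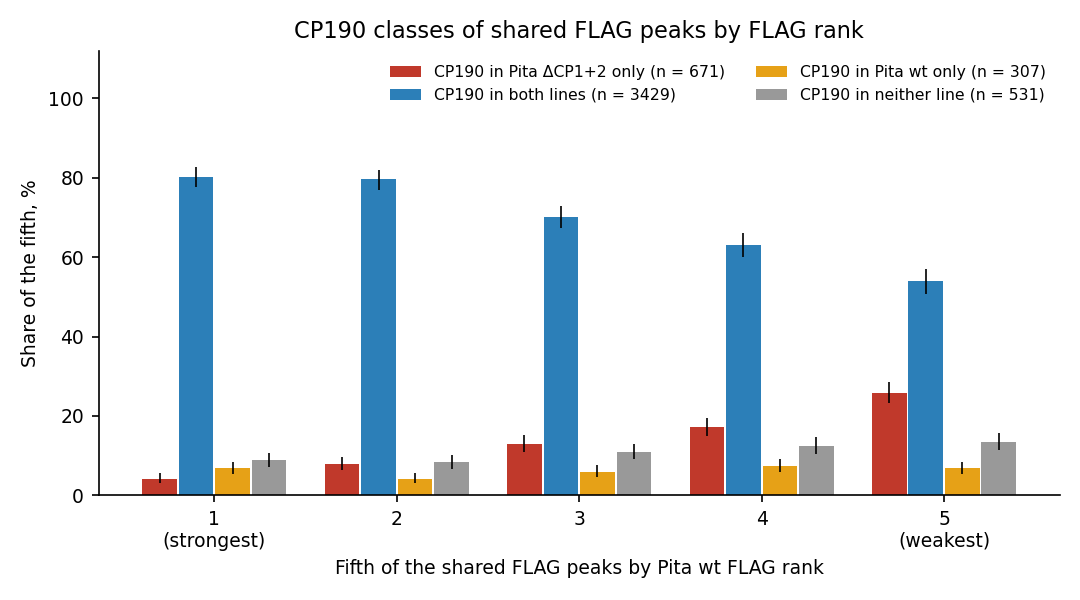
Share of shared FLAG peaks (vertical axis, percent) in each CP190 class, by quintile of Pita wt FLAG rank (horizontal axis, strongest first); bars are shares and lines 95% Wilson intervals over 987 or 988 peaks. The mutant-only share is 4.15% in the strongest and 25.8% in the weakest quintile, while the share with CP190 in both lines is 80.3% and 53.9%.

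FLAG ranks of overlapping peaks moved between the lines. The FLAG summits paired at a mutant-only site lay up to 495 bp apart, so a pair need not be the same peak. As a share of its list, the FLAG rank was higher in Pita ΔCP1+2 at 380 of the 671 mutant-only sites (56.6%), which is near the 56.3% of all shared FLAG peaks. A shift of over 25% of the list in either direction was seen at 197 mutant-only sites (29.4%) and at 26.7% of all shared FLAG peaks. The correlation of FLAG fold between the lines was a Spearman's rho of 0.52 across the 671 sites and 0.68 across the 3429 sites with CP190 in both lines, given as a description, since peaks share libraries and a control. Mutant-only sites as a group thus did not stand out by a shift of FLAG in either direction.

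The largest rise was at a site on chromosome 3L at 19860478 to 19860765 in a coding exon of Papss, the enzyme that makes the sulphate donor PAPS. Its FLAG fold was 3.04 in Pita ΔCP1+2 (rank 165 of 7365) and 1.38 in Pita wt (rank 6884 of 6901), and its CP190 fold in Pita ΔCP1+2 was 3.21 (rank 148). This site is also a borderline case, as the nearest Pita wt CP190 summit lay 506 bp from the Pita wt FLAG summit but 29 bp from the CP190 summit of Pita ΔCP1+2. That Pita wt CP190 peak had a fold of 2.98 and ranked 313 of 6586, so CP190 was listed in both lines at the place of the mutant CP190 peak. The FLAG peaks paired at this site may likewise be different peaks, so its rise need not be a change at a single place. The next rises were in coding exons of Moe, the moesin homologue that links actin to the membrane, with FLAG ranks of 1279 in Pita ΔCP1+2 and 6743 in Pita wt, and of CG14185, with ranks of 1291 and 6687. The largest falls were in coding exons of Rbp6, a Musashi-family RNA-binding protein (FLAG rank 5980 in Pita ΔCP1+2 and 761 in Pita wt), of Dhc36C, a dynein heavy chain (6484 and 1370), and of spz6, a Spätzle-related ligand (6814 and 1828). The CP190 peak of Pita ΔCP1+2 ranked 6170 at Rbp6, 2362 at Dhc36C and 6631 at spz6. That such a peak is present at these sites follows from the rule, whatever their FLAG rank.

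The highest CP190 fold of any mutant-only site was 3.44 (rank 72 of 8429) at Rcd-1 (FBgn0031047), which encodes a conserved subunit of the CCR4-NOT complex. The FLAG fold there was 3.03 in Pita ΔCP1+2 (rank 170) and 2.99 in Pita wt (rank 370). The nearest Pita wt CP190 summit was 1253 bp away and belonged to a peak of fold 4.1 and rank 134. The next was the site in dy, a zona-pellucida-domain protein of the wing cuticle, with a CP190 fold of 3.35 (rank 102) and FLAG ranks of 666 in Pita ΔCP1+2 and 1129 in Pita wt. At dy the nearest Pita wt CP190 summit was 6764 bp away, so this strong site stood clear of any listed CP190 peak of the other line. The site in raskol, a Ras GTPase-activating protein, had a CP190 fold of 3.18 (rank 166), but a Pita wt CP190 peak of fold 6.39 and rank 69 had its summit 661 bp away. Together with Papss these were the 4 mutant-only sites with a fold above 3.

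Then came dlg1, a membrane-associated scaffold of septate junctions, with a CP190 fold of 2.90 (rank 367) and a distance of 38778 bp to the nearest Pita wt CP190 summit. The CP190 fold was 2.87 at CG16815, 2.81 at eIF2Bepsilon, a subunit of the translation initiation exchange factor, and 2.80 in a coding exon of Hers, a repressor of histone genes. It was 2.79 at CG5746 and at an intergenic site whose nearest annotated start belongs to the transposable element 297{}832. The nearest Pita wt CP190 summit was 526 bp away at CG5746 (fold 2.79) and 567 bp away at eIF2Bepsilon (fold 2.53). It was 2020 bp away at CG16815, 4330 bp at Hers and 48080 bp at the intergenic site. Of the 10 sites with the highest CP190 fold, all but the last had the summit in a coding exon.

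The sites with the highest Pita wt FLAG fold were others. At Ipp, inositol polyphosphate 1-phosphatase, the FLAG fold was 3.48 in Pita ΔCP1+2 (rank 48) and 4.77 in Pita wt (rank 29), and the CP190 fold in Pita ΔCP1+2 was only 1.92 (rank 6025). At UBL3, a ubiquitin-like protein, the FLAG fold was 2.70 in Pita ΔCP1+2 and 3.65 in Pita wt, with a CP190 rank of 2199. At CG8888, the FLAG fold was 2.78 in Pita ΔCP1+2 and 3.49 in Pita wt, with a CP190 rank of 2584. In a coding exon of CG32669, whose nearest annotated start is CG15209, it was 3.51 and 3.42 with a CP190 rank of 7099, and at CSN5, the catalytic subunit of the COP9 signalosome, it was 2.36 and 3.37 with a CP190 rank of 8000. Strong FLAG peaks among the mutant-only sites thus included some with CP190 peaks near the bottom of the list. Across the 671 sites, FLAG fold and CP190 fold in Pita ΔCP1+2 had a Spearman's rho of 0.45, against 0.67 at sites with CP190 in both lines, again as a description only.

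The rule itself holds the CP190 summit of Pita ΔCP1+2 less than 500 bp from the Pita wt FLAG summit at every mutant-only site. The same bound applies at sites with CP190 in both lines, and to FLAG summits paired between the lines. Within this bound, the CP190 summit at mutant-only sites lay a median of 31 bp from the Pita wt FLAG summit. It lay within 100 bp at 553 of the 671 sites (82.4%). At sites with CP190 in both lines the median was 27 bp and the share was 88.2%. The FLAG summits of Pita ΔCP1+2 and Pita wt were a median of 27 bp apart at mutant-only sites and at sites with CP190 in both lines. The 671 sites correspond to 667 distinct CP190 peaks and 668 distinct FLAG peaks of the Pita ΔCP1+2 line.

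Because the rule asks for no Pita wt CP190 window, the nearest Pita wt CP190 summit was at least 500 bp away by construction. The median distance was 3698 bp (quartiles 1528 and 8750 bp), and it was below 1000 bp at 99 sites (14.8%) and below 5000 bp at 388 sites (57.8%). At sites with CP190 in neither line, which also overlap no Pita wt CP190 window, the median was 4995 bp. Their quartiles were 1734 and 12548 bp, so the ranges overlapped. Sites just inside the limit were RanBPM (500 bp, CP190 fold of 1.88 in Pita ΔCP1+2), the sites in rols (501 bp, 2.08) and Gp93 (505 bp, 2.35), that in Papss (506 bp) and that in tinc (509 bp, 1.99). Just outside it were Mi-2 (499 bp, 1.82), bap (495 bp, 1.49), vnd (493 bp, 2.70) and ham (491 bp, 2.13), and a site with CP190 in Pita wt only near asRNA:CR45130 (491 bp). The folds on both sides of the limit overlap, and the limit itself separates sites that differ by a few bp. By the deposited boundaries 53 mutant-only sites touched a Pita wt CP190 peak, and at 15 the CP190 window of Pita ΔCP1+2 itself overlapped a Pita wt CP190 window. At 57 sites (8.49%) at least one of these held. Without them, and without CP190 peaks that ranked past the length of the Pita wt list, 484 sites (72.1%) were left.

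**Figure D3:**
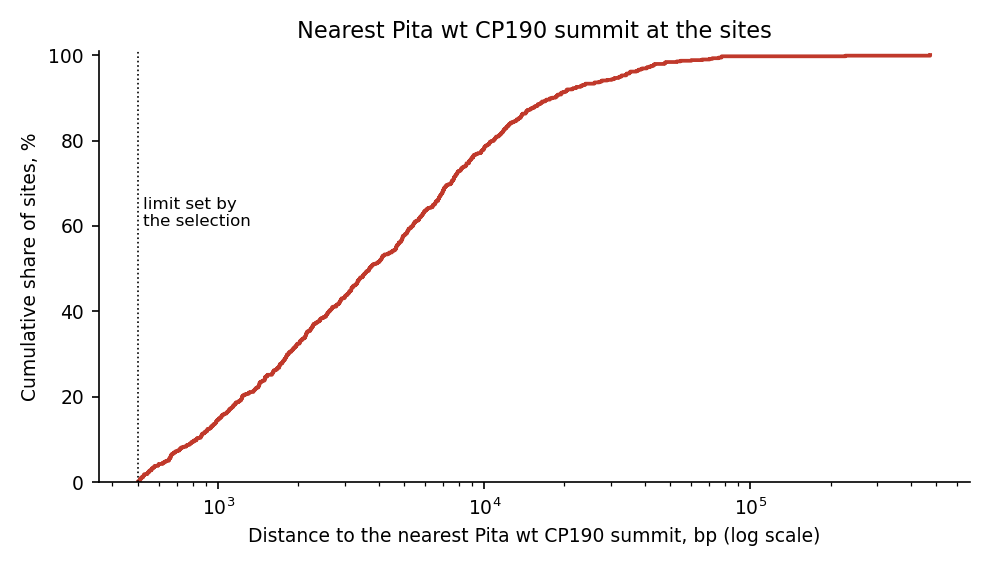
Cumulative share of the 671 mutant-only sites (vertical axis, percent) by distance from the Pita wt FLAG summit to the nearest Pita wt CP190 summit (horizontal axis, bp, log scale); the dotted line marks the 500 bp set by the rule. The curve starts at that line, with 14.8% of sites below 1000 bp and 57.8% below 5000 bp.

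Position in the genome was not used by the rule. At 560 of the 671 mutant-only sites (83.5%, interval 80.5 to 86.1%) the FLAG summit was in a coding exon of the Ensembl annotation. Coding bases make up 17.1% of the chromosome arms, and 29.1% of the windows 5 kb to each side of these sites were centred in a coding exon. The share was 85.4% at sites with CP190 in both lines, 64.6% at sites with CP190 in Pita wt only and 53.2% at sites with CP190 in neither line. In position, mutant-only sites thus lay close to the sites with CP190 in both lines, and the share over all shared FLAG peaks was 80.4%. Read the other way, 14.1% of the shared FLAG peaks in coding exons were mutant-only sites, as were 12.2% of those in introns and 9.79% of the intergenic ones, with intervals that overlap.

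Introns held 45 mutant-only sites (6.71%), intergenic DNA 33 (4.92%), 5′ UTRs 25 (3.73%), non-coding exons 6 and 3′ UTRs 2. An annotated transcription start lay within 250 bp of the summit at 46 sites (6.86%, interval 5.18 to 9.02%), against 20.7% of the sites with CP190 in Pita wt only (interval 16.5 to 25.6%) and 12.0% of the windows 5 kb away. It was 6.11% at sites with CP190 in both lines and 7.55% over all shared FLAG peaks, so the mutant-only share lay near that of the shared FLAG peaks as a whole. Divergent starts within 1000 bp were found at 70 mutant-only sites (10.4%, interval 8.34 to 13.0%) and at 6.87% of the sites with CP190 in both lines (interval 6.07 to 7.77%). The share was 9.18% at sites with CP190 in Pita wt only (interval 6.43 to 12.9%), which overlaps that of the mutant-only sites, and 7.29% over all shared FLAG peaks. The coding exons that hold the summits had a median length of 671 bp over 577 sites, counting also those that overlap a 5′ UTR, and 700 bp at sites with CP190 in both lines.

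**Figure D4:**
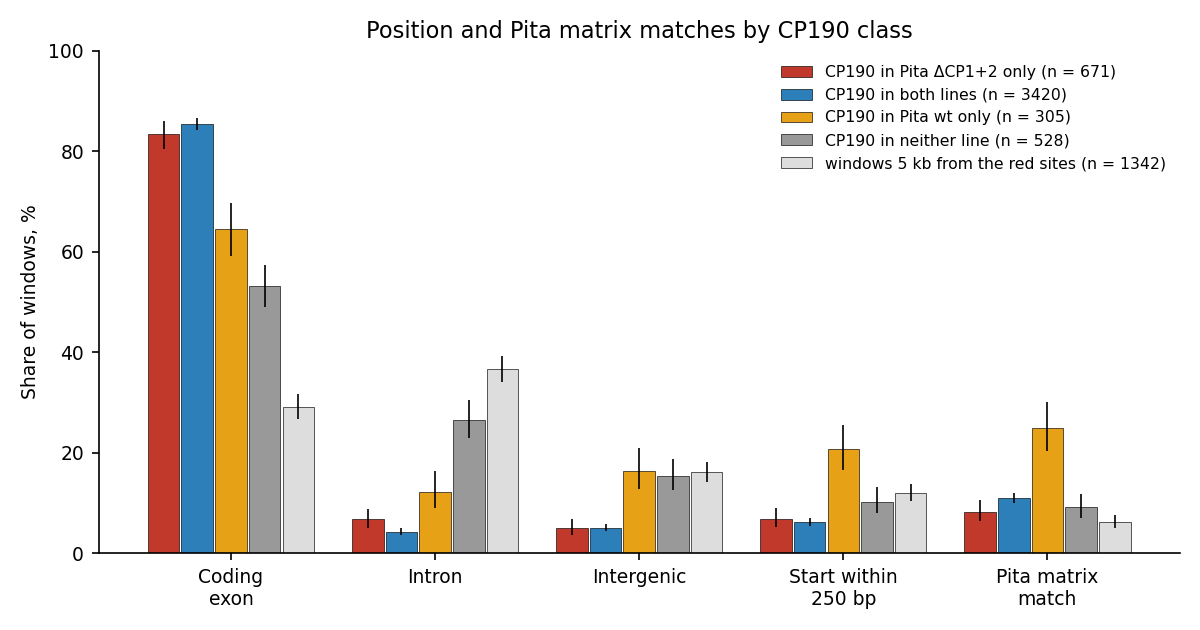
Share of windows (vertical axis, percent) with the FLAG summit in a coding exon, an intron or intergenic DNA, with a transcription start within 250 bp, and with a Pita matrix match below 0.0001, for the 4 CP190 classes on annotated chromosomes and for windows 5 kb from the mutant-only sites; lines are 95% Wilson intervals over windows. The mutant-only bars lie next to those for CP190 in both lines, at 83.5% and 85.4% in coding exons, and the bars for CP190 in Pita wt only stand higher for transcription starts (20.7%) and matrix matches (24.9%).

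The windows of the mutant-only sites were rich in G and C. Their median GC content was 56.4% (44.2 to 68.2%), and 93.0% of them were above 50%. Over all shared FLAG peaks the median was 57.4% and 90.9% were above 50%, so this richness belongs to the shared FLAG peaks as a whole. The windows 5 kb away had a median of 43.8%, and 24.6% of them were above 50%. The whole chromosome arms have 42.2% and all coding bases 53.3%, so that the windows lay above the mean of coding sequence as well. Within coding exons alone the median was 56.8% at mutant-only sites, 58.8% at sites with CP190 in both lines, 56.2% at sites with CP190 in Pita wt only and 54.6% at sites with CP190 in neither line. The GC content of a site and its CP190 fold in Pita ΔCP1+2 had a Spearman's rho of 0.01 across the 671 sites. GC content also affects amplification and sequencing of libraries, and its part in the peak calls was not tested.

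Short words bound by other insulator or early-embryo factors were searched on both strands within 250 bp. GAGAGAG, read by the GAGA factor, was present at 36 mutant-only sites (5.37%), at 5.36% of all shared FLAG peaks and at 5.74% of the windows 5 kb away. TATCGATA, the promoter word read by DREF and overlapping that of BEAF-32, was present at 3 mutant-only sites (0.447%), against 0.569% of all shared FLAG peaks and 1.86% of the windows 5 kb away. The shares of both words at the mutant-only sites were thus no higher than in the windows around them. CAGGTAG, the word of the zygotic activator Zelda, was present at 52 mutant-only sites (7.75%, interval 5.96 to 10.0%), against 5.77% of all shared FLAG peaks (interval 5.15 to 6.45%) and 3.43% of the windows 5 kb away (interval 2.58 to 4.54%). GGTCACACT, a core promoter word read by M1BP, was present at 4 sites (0.596%) and at 0.630% of all shared FLAG peaks. TGCATACTT was present at 0 of 671 sites, with an upper Wilson limit of 0.569%, and at 0.244% of all shared FLAG peaks. The absence of a word says only that these letters are not in the window.

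The mutant-only sites were spread over the major chromosome arms, with 152 on X, 147 on 3R, 134 on 2R, 120 on 3L, 118 on 2L and none on the fourth chromosome. As a share of the shared FLAG peaks of the arm this was 16.6% on X (interval 14.3 to 19.1%) and between 12.1% and 14.5% on the other 4. The X chromosome also had the stronger sites, with a median CP190 fold of 2.15 on X and 2.00 to 2.01 elsewhere. Of the quartile of mutant-only sites with the highest CP190 rank in Pita ΔCP1+2, 59 of 168 were on X (35.1%, interval 28.3 to 42.6%), and of the lowest quartile 16 of 168 (9.52%, interval 5.95 to 14.9%). The same course was seen by FLAG rank in Pita wt, with 36.9% and 8.93%. It was not particular to the mutant-only sites, since at sites with CP190 in both lines the highest and lowest quartiles by CP190 rank had 25.1% and 11.2% on X. In each of the 4 lists the median fold of X-linked peaks was above that of the other peaks, at 2.16 and 2.05 in both CP190 lists.

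**Figure D5:**
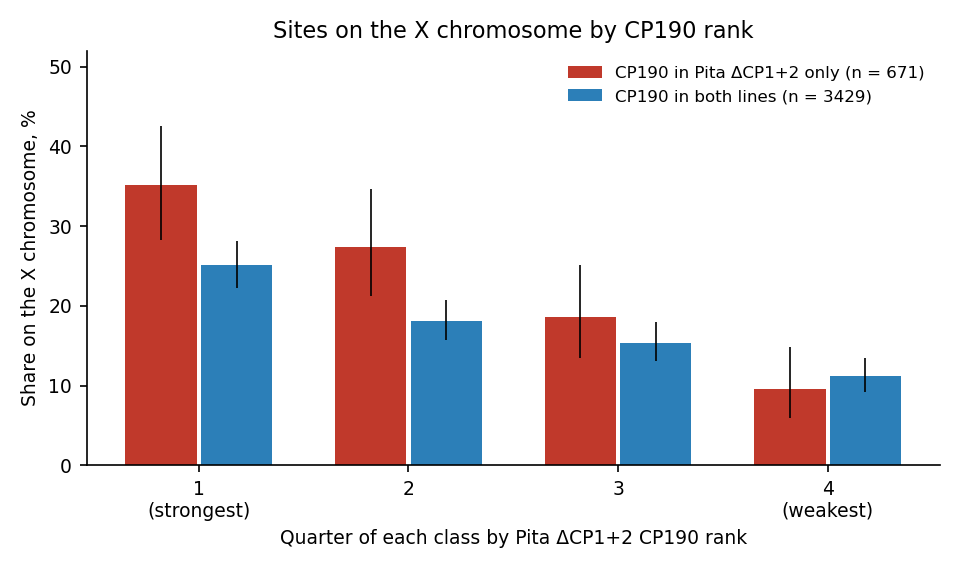
Share of sites on the X chromosome (vertical axis, percent) by quartile of Pita ΔCP1+2 CP190 rank (horizontal axis, strongest first), for mutant-only sites and for sites with CP190 in both lines; lines are 95% Wilson intervals over sites. The share is 35.1% in the strongest and 9.52% in the weakest quartile of mutant-only sites, and 25.1% and 11.2% at sites with CP190 in both lines.

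The genes with the transcription start nearest to a mutant-only site were checked against 8 lists. Of the 24254 annotated genes, 645 were nearest to a mutant-only site and 3851 to any shared FLAG peak. Among 21 insulator and architectural protein genes, 2 were nearest to a mutant-only site and 6 to any shared FLAG peak. The first was pita itself, where the summit lay in a coding exon of the neighbouring Rrp4 gene (a core subunit of the exosome), 724 bp from the pita start, with a CP190 rank of 2091 in Pita ΔCP1+2. A Pita wt CP190 peak of fold 4.67 and rank 104 had its summit 1235 bp from it, so CP190 was listed at this locus in both lines. The second was Trl, the gene of the GAGA factor, with the summit in a coding exon of CG42507 and 7936 bp from the start. By a count added after seeing the data, none of the 21 genes held a mutant-only site in its own coding exons. A shared FLAG peak lay in a coding exon of 9 of them. Over all genes, 551 of the 3101 with a shared FLAG peak in a coding exon held a mutant-only site there. With so few genes, the absence does not set the insulator and architectural protein genes apart.

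Of 26 Polycomb, Trithorax and remodelling genes, brm was the only one nearest to a mutant-only site, while 10 were nearest to any shared FLAG peak. Counted by the gene whose coding exon holds the summit, a way of counting added after seeing the data, 3 of these genes held mutant-only sites, namely brm, osa and mor, which encode the ATPase and 2 further subunits of Brahma complexes. The site in the longer coding exon of osa had CP190 fold 2.53 (rank 1143) in Pita ΔCP1+2 and FLAG ranks of 639 in Pita ΔCP1+2 and 2649 in Pita wt, and the other had CP190 fold 2.10 (rank 3926). The site in mor had CP190 fold 1.94 (rank 5705) and the site in brm 1.87 (rank 6469). Of the 14 genes of this list that held a shared FLAG peak in a coding exon, these were 3, and over all genes 551 of 3101 held a mutant-only site, so the share in this list lay near that of all genes.

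Of 40 signalling genes, 3 were nearest to a mutant-only site and 15 to any shared FLAG peak, against 645 of 3851 over all genes. They were dome, the JAK/STAT receptor (CP190 fold 2.04 in Pita ΔCP1+2), mam, a coactivator of Notch (1.90, in an intron), and dsh, the Wnt pathway adaptor (1.64, in a coding exon of CG1737). The BMP antagonist gene sog held a site in a coding exon (2.19). With dome it made 2 of the 17 signalling genes that held a shared FLAG peak in a coding exon. None of the 24 segmentation genes and none of the 25 cell cycle genes was nearest to a mutant-only site, although 13 and 5 of them were nearest to some shared FLAG peak. Of the 8 Hox genes none was nearest to one, and pb held one in a coding exon (CP190 fold 2.27, rank 2400). It was 1 of the 7 Hox genes that held a shared FLAG peak in a coding exon. With counts this small the lists do not set the mutant-only sites apart from the shared FLAG peaks.

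Of the 49 genes with proteasome-type symbols, 2 were nearest to a mutant-only site and held it in a coding exon, and 10 were nearest to any shared FLAG peak. These were Rpn11, the deubiquitinase of the proteasome lid (CP190 fold 2.46, rank 1401), and Rpt4, an ATPase of its base (2.23, rank 2633). Prosap, which a search by symbol prefix also returned, is a synaptic scaffold gene and not a proteasome gene, and it held 2 sites that share 1 CP190 peak. Of the 92 ribosomal protein symbols, 18 were nearest to any shared FLAG peak. RpL24-like was nearest to a mutant-only site (CP190 fold 1.96), and RpL17 (1.85) and RpL23A (2.09) held one in a coding exon. The nearest Pita wt CP190 summit was 778 bp away at RpL17 (fold 7.44, rank 58), 982 bp at RpL24-like and 1834 bp at RpL23A. Counted by coding exon, RpL24-like included, these were 3 of the 22 genes with such symbols and a shared FLAG peak there. The symbols were also searched by prefix, so not every gene found need encode a ribosomal protein. Over all genes this count was 551 of 3101.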

How the data were processed

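FLAG and CP190 ChIP-seq peak lists of Pita ΔCP1+2 and Pita wt embryos were used. According to the methods and the labels, the authors trimmed reads with cutadapt, aligned them to dm6 with Bowtie version 2, discarded duplicate reads, ran MACS2 with the Pita wt preimmune sample as control, and merged the replicates by the IDR pipeline. The fold enrichment of each deposited peak is the authors' ratio over that control, and the −log10 p of each peak is also a value deposited by the authors. The labels and the methods differ on the collection window, the sequencer and the read mode. Other columns, such as q-values and the scores of the compared sets, were not used.

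Each peak was reduced to its summit plus 250 bp to the left and right, 1 shared bp made an overlap, and the nearest overlapping summit was taken. Ranks follow fold enrichment within a list. Features and starts came from the Ensembl annotation, release 115, and sequence from the RefSeq genome of the same assembly. The Pita matrix, read from the study's supplement, was scanned on both strands and p-values were computed exactly for words with all bases equally frequent. As a check of the digits, its weights were turned into probabilities with assumed base frequencies of 0.3 for A and T and 0.2 for C and G, and each row summed to 1 within 0.0241. Quintiles and quartiles are of equal size by rank. Scaffold peaks without annotation were left out of feature, GC and motif shares. The code was tested on simulated data.

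Sites named are the 10 with the highest CP190 fold, the 5 with the highest Pita wt FLAG fold, the 5 with the lowest matrix p, the 3 largest rises and falls of FLAG rank, the 5 on each side of the distance limit, and examples from the gene lists. CG2127 is named without its word, and sens-2 is shown in its place. Sites, lists and rules were chosen with earlier results of these data known. No test was made, since replicates are pooled and the lists chose the sites. Alternatives are given in the closing section. Python 3.11.15, numpy 2.4.6, pandas 2.3.3, scipy 1.17.1 and matplotlib 3.10.9 were used.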

Additional observations from a re-analysis of the deposited data

How the results depend on the processing

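The number of mutant-only sites, 671, lay between 532 and 687 with deposited boundaries, other windows or overlaps, CP190 lists of equal length, the Pita ΔCP1+2 FLAG list as the base, or chromosome arms only. It was 352 with the 5000 strongest peaks of each list and 340 with the upper part of each list by −log10 p. As a share of shared FLAG peaks it was 12.2% with windows of 500 bp on each side, 10.8% and 11.3% with CP190 lists of equal length by fold and by −log10 p, and 10.7% with the 5000 strongest peaks. It was 12.4% without the 57 sites that touch a Pita wt CP190 peak by another measure, an alternative added after seeing the data. Sites with CP190 in Pita wt only numbered 544 and 468 at equal length by fold and by −log10 p, and 172 in the upper part of each list. With the 5000 strongest peaks, 352 sites had CP190 in Pita ΔCP1+2 only and 334 in Pita wt only.

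The share with a transcription start nearby was 5.00% in the upper part of each list, 1.49% within 100 bp, 20.3% within 500 bp and 41.4% within 1000 bp. The share with a matrix match was 0.298% below 1e-05, 0 below 1e-06, and 16.4% when the search ran from 250 bp before the deposited start to 250 bp after the end. The share in coding exons stayed between 82.1% and 85.9% in 10 alternatives, all applied after seeing the data. No paired analysis was possible because each list already pools its replicates, and for the same reason no replicate could be left out. Read depth was not available to weigh single peaks.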

Other observations

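Mutant-only sites were mostly scattered one by one. The median gap between neighbours on an arm was 105064 bp, and 34 of 666 neighbouring pairs were under 5000 bp apart. The 551 genes that held a summit in a coding exon included 27 with 2 sites and none with more. At Shab, a voltage-gated potassium channel gene, the CP190 ranks in Pita ΔCP1+2 were 790 and 5224 of 8429. At RyR, the ryanodine receptor gene, they were 839 and 6902, and at Crag, which encodes an exchange factor for Rab GTPases, they were 1292 and 1391. In Toll-7, a Toll-family receptor gene, the FLAG ranks at 1 site were 1897 of 7365 in Pita ΔCP1+2 and 6111 of 6901 in Pita wt. These genes were picked after their values were seen.

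The nearest annotated start belonged to a protein-coding gene at 578 mutant-only sites, to a non-coding RNA gene at 43 and to a transposable element at 42. Among all 4938 shared FLAG peaks these numbers were 4039, 441 and 364.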
